A study of Mus musculus with 6 samples.

Results

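The MHC class II presentation genes are the genes of the machine that loads peptides from the endosome onto class II molecules and shows them to CD4+ T cells. They were examined in RNA of whole lungs, sequenced in bulk, of TNF+ and TNF- animals. The 10 genes were taken by symbol from a fixed list, which holds the classical chains H2-Aa, H2-Ab1 and H2-Eb1, the invariant chain Cd74, the peptide editor genes H2-DMa, H2-DMb1 and H2-DMb2, the editor's inhibitor genes H2-Oa and H2-Ob, and the transactivator Ciita. This list and the other lists used below were chosen with earlier results of these data known, so counts over them are descriptions. All 10 genes were among the 49568 gene symbols of the count table and among the 19199 genes with enough reads to be tested. TNF+ mice were TNF-Tg animals of the 3647 line, whose transgene is human TNF. Their WT littermates were the TNF- mice. All were C57BL/6 females killed at 4 months of age, with no further treatment. There were 3 lungs per genotype and 1 library per mouse, named here by genotype and replicate number. The paper text used here names no promoter or cell type for the transgene. Mouse Tnf, the endogenous gene, had between 106 and 405 reads in the TNF+ lungs and between 14 and 35 in the TNF- lungs, and whether any of them came from the human transgene was not tested.

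Class II molecules are made of an α and a β chain that assemble in the endoplasmic reticulum around the invariant chain, which blocks the groove and steers the complex to endosomes. There, cathepsins trim the invariant chain down to a short fragment named CLIP. H2-DM removes CLIP and selects stable peptides, and H2-DO, a related dimer best known from B cells, holds H2-DM back. The genes are switched on by CIITA, a coactivator that does not touch DNA itself and docks on a protein assembly at the SXY module of their promoters, where RFX proteins sit on the X box, CREB on the adjoining X2 box and NF-Y on the Y box. In lung, B cells, dendritic cells and macrophages carry class II molecules, and alveolar type 2 cells also make them. C57BL/6 mice make the I-A molecule from H2-Aa and H2-Ab1. They lack the I-E molecule because their α chain gene H2-Ea is defective, so the H2-Eb1 β chain has no usual partner.

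Of the 10 genes, 8 lie on chromosome 17 of the mouse genome (GRCm38, GENCODE M21), all on the + strand except H2-Aa. H2-Oa is the first, from 34092340 to 34095234. H2-DMa follows from 34119541 to 34139101, H2-DMb2 from 34143307 to 34151555, H2-DMb1 from 34153072 to 34160230, H2-Ob from 34238903 to 34254414 and H2-Ab1 from 34257689 to 34269419. H2-Aa lies from 34282744 to 34287823 and H2-Eb1 from 34305867 to 34316674. Psmb9, Tap1, Psmb8 and Tap2, genes of class I presentation, lie between H2-DMb1 and H2-Ob. Ciita is on chromosome 16, from 10480059 to 10528418 on the + strand. Cd74 lies elsewhere. Of the 100-base windows of each gene's exons and transcripts, only H2-DMb1 and H2-DMb2 shared any with another gene, and it was with each other. The 179 shared windows are 11.3% of H2-DMb1 and 10.3% of H2-DMb2, so part of the reads of this pair could be assigned to either or dropped.

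Stretches of promoter are shown here because the SXY module is the element through which class II genes are known to be switched on together. RefSeq promoter windows (GRCm38.p6, 250 bases before to 50 after each start) of H2-Oa, H2-DMa, H2-DMb2, H2-DMb1, H2-Ob, H2-Aa, H2-Eb1 and the neighbouring β chain gene H2-Eb2 were used, and those of H2-Ab1, Cd74 and Ciita were not analysed here. The windows were searched on both strands for the Y box letters TGATTGG, for AACNNATG, a part of the X box, and for the cyclic AMP response element TGACGTCA, the type of site that makes up X2. These letters were chosen after the class II promoters had been read. No searched motif overlapped another at the positions found. The stretches below run 5′ to 3′ along the transcript, with those letters in capitals, and hold 52 bases each.
H2-Oa (chr17:34092299-34092350, + strand): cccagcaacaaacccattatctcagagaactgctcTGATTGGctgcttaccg
H2-DMb2 (chr17:34145122-34145173, + strand): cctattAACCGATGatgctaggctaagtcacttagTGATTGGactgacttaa
H2-DMb1 (chr17:34153093-34153144, + strand): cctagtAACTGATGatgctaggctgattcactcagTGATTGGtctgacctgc
H2-Ob (chr17:34238811-34238862, + strand): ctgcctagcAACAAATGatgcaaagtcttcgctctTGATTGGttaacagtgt
H2-Aa (chr17:34287857-34287908, - strand): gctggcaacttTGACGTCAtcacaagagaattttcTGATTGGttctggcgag
H2-Eb1 (chr17:34305771-34305822, + strand): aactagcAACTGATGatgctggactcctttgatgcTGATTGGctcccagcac
H2-Eb2 (chr17:34325538-34325589, + strand): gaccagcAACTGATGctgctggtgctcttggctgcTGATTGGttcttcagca

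The Y box stood with its first base at positions -102 to -45 from the start in all 7 genes shown, and it occurred in 7.82% of 32841 RefSeq windows of that length. In H2-DMb1 and H2-DMb2 the X part lay 21 bases ahead of the Y box, in H2-Eb1 and H2-Eb2 20 bases and in H2-Ob 18 bases. An X part placed 5 to 40 bases before a Y box was found in 18 windows of the 32841, which is 0.0548%. These 5 genes were among them. As the letters were chosen after reading class II promoters, these shares are a description and not a test. H2-Aa carried TGACGTCA, found in 1.79% of windows, ahead of its Y box, but not the letters AACNNATG, found in 8.87%. H2-Oa had the Y box letters alone. The 2 windows of H2-DMa held none of the motifs. Only these exact letters were searched, so boxes with other letters would have been missed. A match is a description of the letters and says nothing of binding in these lungs.

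**Figure D1:**
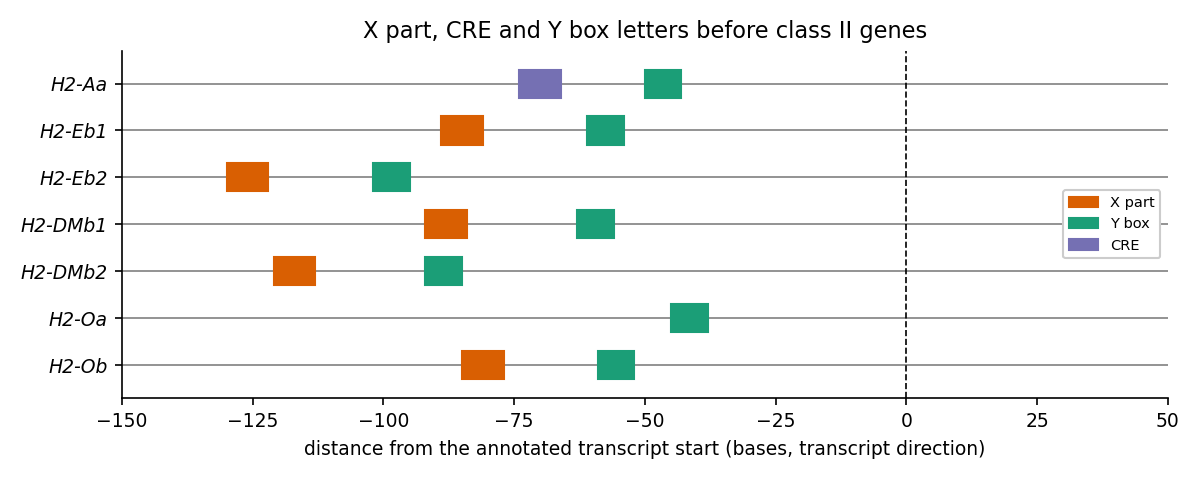
Positions of the searched letters before the annotated starts of 7 class II genes, in bases from the start along the transcript (dashed line). Each box is a match drawn to scale, and the Y box follows the X part or the cyclic AMP response element (CRE) at a similar distance in every gene except H2-Oa, where neither was found.

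Every TNF+ library was shallower than every TNF- library, with 25396923 to 30049463 counted reads in TNF+ and 31400978 to 32529408 in TNF- lungs, and counts were scaled for this. Markers of alveolar type 2 cells and of endothelium were detected in every lung, as whole lung should show. TNF- replicate 1 held reads of a squamous epithelium, with 56570 counts of Krt4 and 45433 of Krt13 against at most 8 in any other lung. Krt5 had 2617 counts in that lung, 29 and 60 in the other TNF- lungs and 4 to 11 in TNF+ lungs. TNF+ replicate 1 had 5.22% of its reads on Gm42418 against 0.0774% to 0.274% elsewhere.

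Nearly the whole set was higher in TNF+ lungs. In the edgeR fit (quasi-likelihood, p adjusted by Benjamini-Hochberg across all 19199 genes), 9 of the 10 members were higher at an adjusted p under 0.05, and Ciita was not called. The background is large in these lungs, since 47.4% of all genes tested were called, 24.0% higher and 23.4% lower in TNF+. The median log2 fold change was 0.95 over the members and 0.03 over all genes tested. In the same 9 members the lowest TNF+ lung exceeded the highest TNF- lung, a pattern that 30.5% of all genes showed. Together the 10 genes took 0.874%, 0.984% and 0.989% of all reads in TNF+ replicates 1 to 3 and 0.398%, 0.412% and 0.487% in TNF- replicates 1 to 3. In RNA from a whole organ, more cells of a type and more RNA per cell cannot be told apart. With both lungs numbered 1 left out, a fit chosen after the data were seen, 7 members were called, and H2-DMb1 (adjusted p = 0.0567 by edgeR) and H2-Ob (adjusted p = 0.172) were not.

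**Figure D2:**
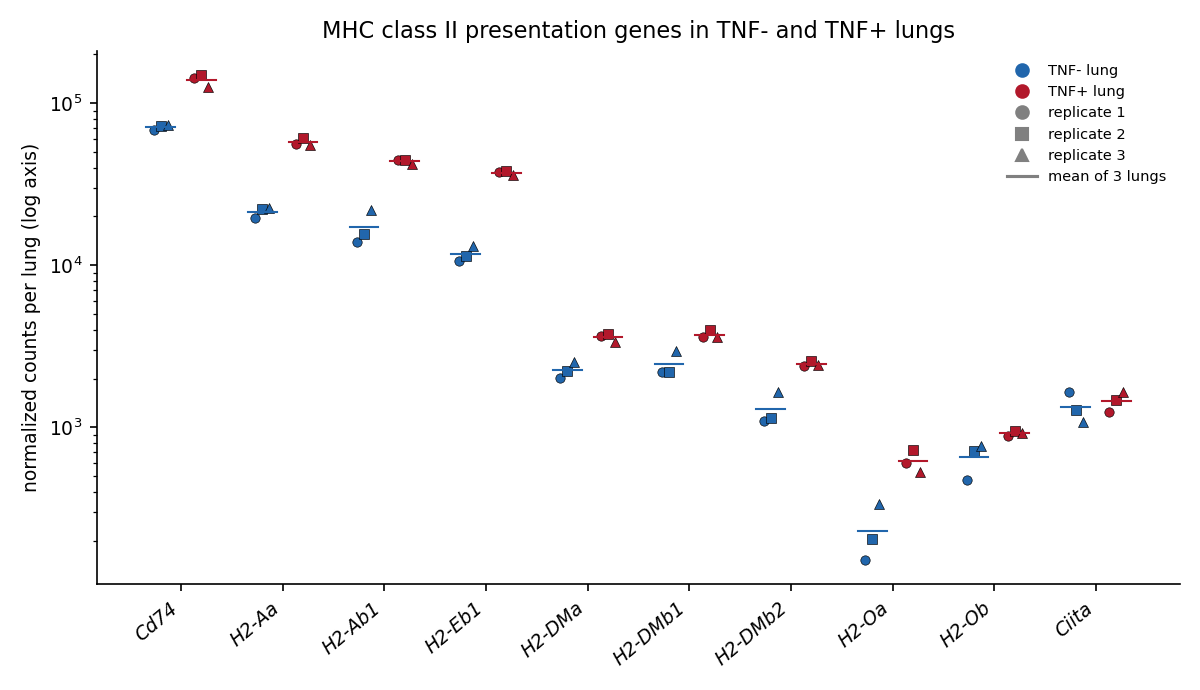
Normalized counts of the 10 genes in each lung on a log axis, with 1 symbol per replicate number and a bar at the mean of 3 lungs. In every gene but Ciita the 3 TNF+ lungs (red) lie above the 3 TNF- lungs (blue), and the gap is widest for H2-Eb1.

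The 3 chains of the classical molecules rose by 2.55-fold to 3.19-fold. Counts are given normalized, that is, scaled to a common library size, in the order of replicates 1, 2 and 3. H2-Aa, the I-A α chain, stood at 56245, 61099 and 54803 in TNF+ and at 19421, 22104 and 22656 in TNF- lungs. The groups were far apart, with the lowest TNF+ lung above the highest TNF- lung by more than the whole spread of either. H2-Aa was 2.68-fold higher in TNF+ (log2 fold change 1.42, SE 0.13, edgeR adjusted p = 0.000102).

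H2-Ab1, the I-A β chain, measured 44327, 44370 and 42383 in TNF+ lungs against 13920, 15565 and 21831 in TNF- lungs. TNF- replicate 3 was the high lung of its group, and the TNF+ lungs were close to each other. The difference was 2.55-fold (log2 fold change 1.35, SE 0.18, edgeR adjusted p = 0.000625), and it lay between 1.20 and 1.56 on the log2 scale when 1 lung at a time was left out. H2-Eb1, the β chain without its usual partner in this strain, had the largest fold of the 10. It stood at 37787, 37880 and 36138 in TNF+ and at 10592, 11359 and 13096 in TNF- lungs, which is 3.19-fold (log2 fold change 1.67, SE 0.13, edgeR adjusted p = 4.01e-05). Neither group of H2-Eb1 came near the other.

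The I-E α chain locus, listed as H2-Ea-ps and annotated as a polymorphic pseudogene, had 1 read in TNF+ replicate 2 and none in the other lungs, where a count of 0 allows up to 3 reads, or 0.0922 to 0.118 CPM (counts scaled to a fixed library size, here by unadjusted totals), as counting error alone. The neighbouring β chain gene H2-Eb2 was low but rose too, from 52, 82 and 96 raw counts in TNF- lungs to 292, 434 and 321 in TNF+ lungs (log2 fold change 2.41, SE 0.25, edgeR adjusted p = 0.000155). Its change on the log2 scale was above that of any of the 10 members, though the difference from them was not tested.

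Cd74, the invariant chain that chaperones every class II dimer, was the most abundant of the set. Its normalized counts were 141948, 149098 and 125775 in TNF+ and 68018, 71735 and 73438 in TNF- lungs. The TNF- lungs agreed closely, and TNF+ replicate 3 was the lowest of its group but still far above them. Cd74 rose 1.96-fold (log2 fold change 0.97, SE 0.16, edgeR adjusted p = 0.0015), less on this scale than any of the 3 classical chains. Cd74 thus made up a smaller part of the reads of the 10 genes in TNF+ lungs, at 48.5%, 48.7% and 46.3%, than in TNF- lungs, at 56.9%, 55.8% and 52.3%. Its raw counts per count of H2-Aa were 2.52, 2.44 and 2.30 in TNF+ and 3.50, 3.25 and 3.24 in TNF- lungs, and those groups did not overlap.

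The genes of the peptide editor H2-DM rose by less than the 3 classical chains, a difference that was not tested. H2-DMa, its α chain, stood at 3647, 3747 and 3355 in TNF+ and at 2012, 2229 and 2546 in TNF- lungs. The groups did not overlap, and the change was 1.58-fold (log2 fold change 0.66, SE 0.11, edgeR adjusted p = 0.0018). Of its 2 β chain genes, H2-DMb1 measured 3614, 3982 and 3602 in TNF+ against 2194, 2187 and 2951 in TNF- lungs, with TNF- replicate 3 again the high lung. H2-DMb1 was 1.53-fold higher (log2 fold change 0.61, SE 0.13, edgeR adjusted p = 0.00678), and its adjusted p reached 0.0325 with single lungs left out. H2-DMb2 stood at 2377, 2577 and 2439 in TNF+ and at 1094, 1141 and 1651 in TNF- lungs, a change of 1.90-fold (log2 fold change 0.93, SE 0.16, edgeR adjusted p = 0.00188). The β chain genes also shifted against each other. Raw counts of H2-DMb2 per count of H2-DMb1 were 0.658, 0.647 and 0.677 in TNF+ lungs and 0.499, 0.522 and 0.559 in TNF- lungs, with no overlap, a ratio that carries the shared sequence of this pair.

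The H2-DO genes rose by different amounts. H2-Oa, the α chain, had normalized counts of 599, 725 and 528 in TNF+ and of 152, 203 and 336 in TNF- lungs. The TNF- lungs spread widely, with replicate 3 above the other two, yet below each TNF+ lung. H2-Oa was 2.68-fold higher (log2 fold change 1.42, SE 0.28, edgeR adjusted p = 0.00382), and between 1.17 and 1.79 on the log2 scale with 1 lung left out. H2-Ob, the β chain, stood at 881, 948 and 919 in TNF+ and at 475, 715 and 768 in TNF- lungs, where replicate 1 was the low lung. Its rise of 1.40-fold was the weakest call of the set (log2 fold change 0.49, SE 0.17, edgeR adjusted p = 0.0471). The H2-Ob call was lost in 5 of the 6 fits with a lung left out, kept only without TNF- replicate 3, and without TNF- replicate 1 the log2 fold change was 0.28 (edgeR adjusted p = 0.0831). Raw counts of H2-Oa per count of H2-Ob were 0.680, 0.764 and 0.574 in TNF+ lungs and 0.320, 0.284 and 0.438 in TNF- lungs. The summed counts of the 3 H2-DM genes per summed count of the H2-DO genes overlapped, at 6.52, 6.16 and 6.49 in TNF+ and 8.46, 6.05 and 6.48 in TNF- lungs.

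Ciita, the transactivator of the whole family, was the member that was not called. It measured 1237, 1466 and 1643 in TNF+ and 1660, 1282 and 1077 in TNF- lungs. The groups overlapped throughout, with TNF- replicate 1 above every TNF+ lung and TNF- replicate 3 below every one. The log2 fold change of Ciita was 0.11 (SE 0.17, edgeR adjusted p = 0.612), and it turned to -0.02 without TNF- replicate 3 (edgeR adjusted p = 0.913). Without TNF- replicate 1, the lung with squamous keratin reads, it was 0.27 (edgeR adjusted p = 0.192), and with both lungs numbered 1 left out 0.36 (edgeR adjusted p = 0.129). The summed counts of H2-Aa, H2-Ab1 and H2-Eb1 per count of Ciita were 112, 97.8 and 81.2 in TNF+ lungs against 26.5, 38.2 and 53.5 in TNF- lungs. The table sums the transcripts of each gene, so the promoters of Ciita, which differ between cell types, could not be separated. Dexi, a gene on the opposite strand that overlaps Ciita, had a log2 fold change of -0.18 (edgeR adjusted p = 0.288).

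**Figure D3:**
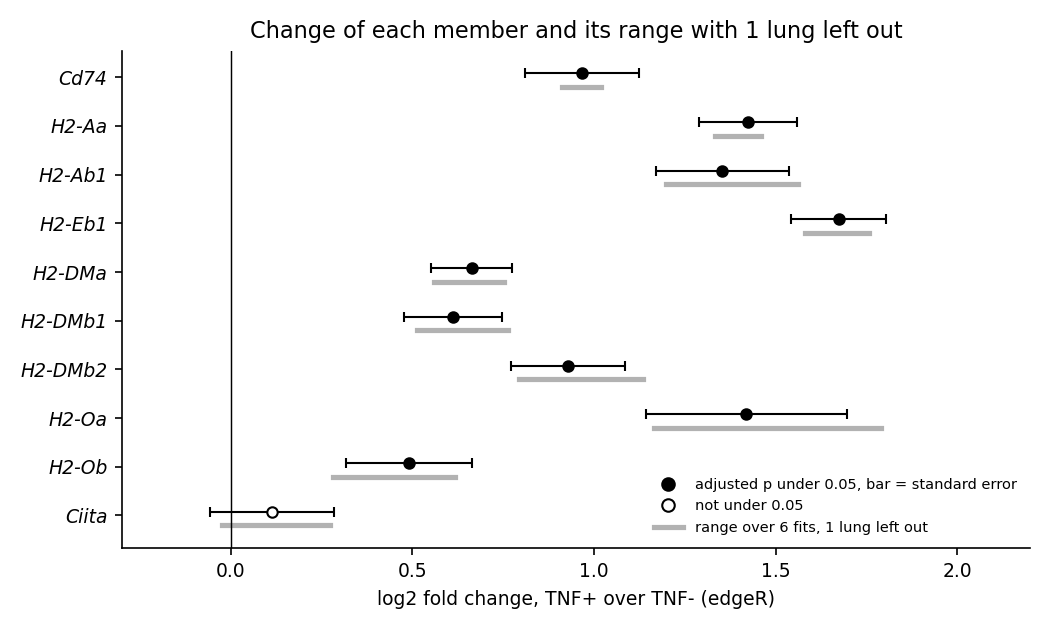
Log2 fold change of each member, TNF+ over TNF-, with its standard error (filled where the edgeR adjusted p is under 0.05) and, in grey, the range over 6 fits that each leave out 1 lung. The classical chains and H2-Oa lie above 1, Cd74, the H2-DM genes and H2-Ob between 0.49 and 0.97, and Ciita at 0.11 with a range that reaches below 0.

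Levels can be set beside each other only per length, so the CPM, scaled by edgeR's TMM factors, were divided by the length of each gene's principal transcript in kilobases (kb). Levels per kb covered more than 2 orders of magnitude. In TNF+ lungs Cd74 was first, at 3254 ± 280 CPM per kb (SD, n = 3), and then H2-Aa at 1680 ± 96.6, H2-Ab1 at 1190.5 ± 30.9 and H2-Eb1 at 737 ± 19.4. After a wide gap came H2-DMb1 at 87.8 ± 5.08, H2-DMa at 71.4 ± 4.06 and H2-DMb2 at 57.2 ± 2.37. H2-Oa at 18.7 ± 3.03, H2-Ob at 11.3 ± 0.42 and Ciita at 7.96 ± 1.12 closed the list. Neighbours in this order were further apart than the sum of their SDs.

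In TNF- lungs the level of Cd74 was 1664 ± 64.9 CPM per kb (SD, n = 3), of H2-Aa 626 ± 50.7, of H2-Ab1 466 ± 114 and of H2-Eb1 231 ± 25.4. The editor genes had the same order as in TNF+ lungs, with H2-DMb1 at 57.5 ± 10.3, H2-DMa at 45.1 ± 5.34 and H2-DMb2 at 30.0 ± 7.16. H2-Ob at 8.07 ± 1.93, Ciita at 7.36 ± 1.63 and H2-Oa at 6.99 ± 2.88 could not be ranked, as their spreads covered each other, and neither H2-Aa and H2-Ab1 nor H2-DMb1 and H2-DMa were further apart than the sum of their SDs. With the union of all exons as the length, H2-Aa fell behind both H2-Ab1 and H2-Eb1 in either genotype, H2-Eb1 came before H2-Ab1 in TNF+ lungs alone, and H2-DMa and H2-DMb2 exchanged places. In TNF- lungs the means with that length were 5.41 for H2-Oa, 4.64 for Ciita and 4.01 for H2-Ob. Their spread was not computed, so they were not ranked. In TNF+ lungs the mean of H2-Oa was above those of H2-Ob and Ciita with either length. Cd74 was first in both genotypes with either length.

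Ptprc (CD45), a membrane phosphatase of all leukocytes, was used as a stand-in for leukocyte RNA, which 1 gene can give only roughly. Its normalized counts were 6459 ± 679 (SD, n = 3) in TNF+ and 2394 ± 299 in TNF- lungs, a log2 fold change of 1.43 (SE 0.13, edgeR adjusted p = 8.13e-05). Per unit of Ptprc, the log2 level of H2-Aa differed by -0.01 between TNF+ and TNF- lungs, that of H2-Ab1 by -0.05, that of H2-Oa by 0.05 and that of H2-Eb1 by 0.25, and their groups overlapped. The other members were lower per unit of Ptprc in TNF+ lungs. The differences in log2 level were -0.76 for H2-DMa, -0.81 for H2-DMb1, -0.91 for H2-Ob and -1.31 for Ciita, with no overlap between the groups. H2-DMb2, at -0.48, and Cd74, at -0.47, overlapped, though not without TNF- replicate 2 (-0.66 and -0.56) or without TNF+ replicate 2 (-0.60 and -0.61). Their smallest differences with 1 lung left out were -0.25 for H2-DMb2 (without TNF- replicate 3) and -0.36 for Cd74 (without TNF+ replicate 3). With 1 lung left out, the values lay between -0.14 and 0.08 for H2-Aa, -0.21 and 0.18 for H2-Ab1, and -0.17 and 0.40 for H2-Oa, which all changed sign. Without TNF- replicate 3, H2-Oa (0.40) and H2-Eb1 (0.38) were higher in TNF+ with no overlap. The lowest value of H2-Eb1 was 0.13, without TNF- replicate 2. For the 4 members without overlap the exact two-sided permutation p was 0.1, the smallest that 3 lungs against 3 can give, and 0.25 after adjustment over the 10 members, so no difference in this ratio could pass 0.05. In this design a p above 0.05 also does not show that H2-Aa and Ptprc moved alike.

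Against H2-Ab1 the members fell into similar classes. The ratio of H2-Eb1 to H2-Ab1 was 0.852, 0.854 and 0.853 in TNF+ replicates 1 to 3, and 0.761, 0.730 and 0.600 in TNF- replicates 1 to 3, a log2 difference of 0.30 with no overlap. The groups of H2-Aa (0.05) and H2-Oa (0.10) overlapped on this scale. Lower relative to H2-Ab1 in each TNF+ lung were H2-DMa by a log2 difference of -0.71, H2-DMb1 by -0.76, H2-DMb2 by -0.43, H2-Ob by -0.86, Cd74 by -0.42 and Ciita by -1.25. For these members and H2-Eb1 the exact two-sided permutation p was again 0.1, and 0.129 after adjustment over 9 members. With 1 lung left out, the log2 difference to H2-Ab1 lay between -0.10 and 0.12 for H2-Aa. For H2-Oa it lay between -0.02 and 0.22, so neither had a settled sign. Without TNF- replicate 3, H2-Aa (-0.10) was lower in TNF+ with no overlap, and the difference of H2-Eb1 was 0.19.

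**Figure D4:**
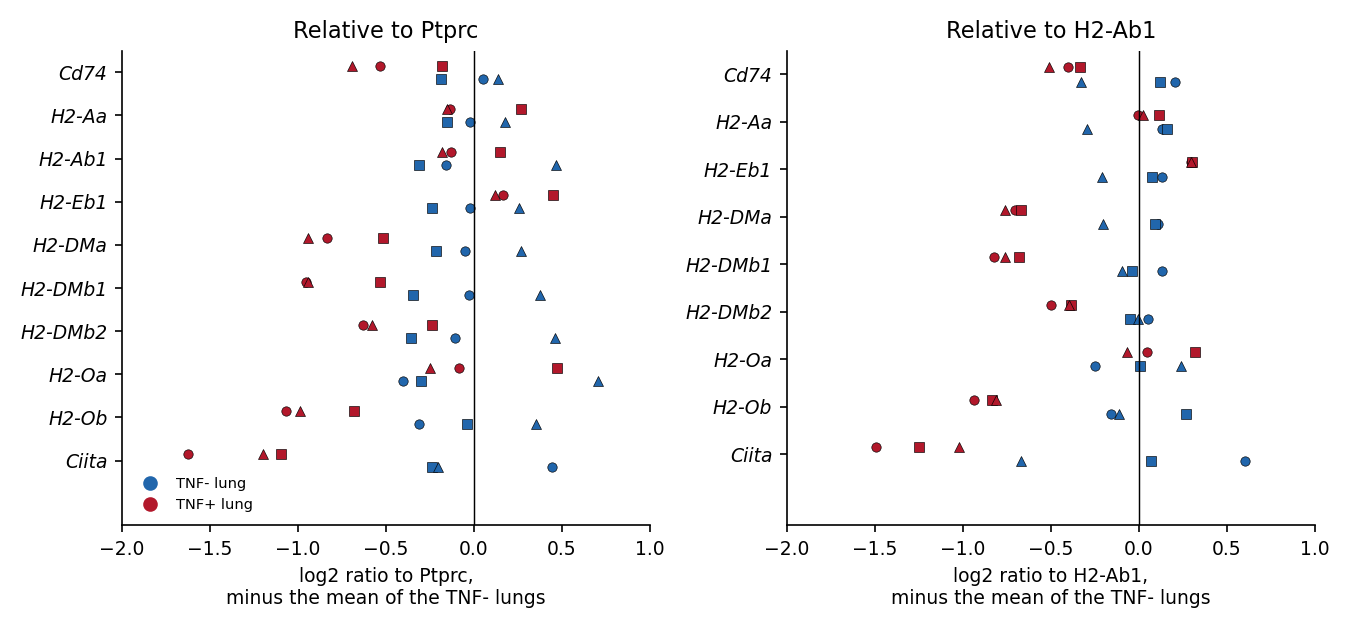
Log2 ratio of each member to Ptprc (left) and to H2-Ab1 (right) in each lung, after subtraction of the mean of the TNF- lungs, with symbols for replicates as in the plot of normalized counts. Relative to Ptprc the TNF+ lungs (red) and TNF- lungs (blue) of H2-Aa, H2-Ab1 and H2-Oa overlap, while Ciita lies furthest to the left, by 1.31 on the log2 scale.

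Marker genes of cell types in the lung are given beside the members, to be read against the 47.4% of all genes that were called, 24.0% higher and 23.4% lower. All 8 interstitial macrophage markers rose, with a median log2 fold change of 3.78, and their summed level was 2403 to 3048 CPM in TNF+ against 158 to 216 CPM in TNF- lungs. Of 9 B cell markers 4 rose, among them Cd79a and Cd22, the median was 0.37, and the sums were 341 to 371 and 168 to 286 CPM. Of 8 dendritic cell markers 3 rose, 2 fell and the sums were 105 to 125 and 89.0 to 101 CPM. Among 8 alveolar macrophage markers 2 rose and 4 fell, with Marco, a scavenger receptor, at a log2 fold change of 7.10 and Siglecf at -1.27. Their sums were 2172 to 3589 and 290 to 388 CPM, and Marco alone had 49542 to 95434 normalized counts in TNF+ against 259.9 to 885 in TNF- lungs. Of 8 T cell markers 7 rose, with sums of 119 to 136 and 56.6 to 96.5 CPM. Of 8 alveolar type 2 markers none rose and 3 fell, with sums of 16280 to 20734 and 22925 to 27563 CPM. All 5 endothelial markers fell, with sums of 1305 to 1504 and 2460 to 2964 CPM. None of the markers in these lists was at 0 in any lung. Relative to the median of the B cell markers every member but Ciita was higher in each TNF+ lung, while relative to that of the interstitial macrophage markers all 10 were lower, by -0.90 (H2-Eb1) to -2.45 (Ciita) on the log2 scale. Other references gave mixed results. Relative to the dendritic cell markers H2-Aa, H2-Ab1 and H2-Eb1 were higher, Ciita was lower and the other 6 overlapped. Relative to the alveolar macrophage markers the same 3 chains and H2-Oa were higher and 6 overlapped. Relative to the T cell markers those 4 were higher, H2-DMb1 and H2-Ob lower and 4 overlapped, and relative to the alveolar type 2 markers every member but Ciita was higher. The part of these cells in the members' rise was not tested.

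Of the 7 factors that bind the SXY module 1 was called higher, against 24.0% of all genes. It was Rfx5, a subunit of the complex on the X box, with 1014, 928 and 995 normalized counts in TNF+ and 566, 647 and 709 in TNF- lungs (log2 fold change 0.61, SE 0.11, edgeR adjusted p = 0.00296). The other RFX subunits Rfxank (-0.16) and Rfxap (0.07), the X2 factor Creb1 (0.21) and the NF-Y genes Nfya (0.18), Nfyb (-0.01) and Nfyc (0.01) were not called, and their log2 fold changes are given in brackets. The median of the list was 0.07.

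In the interferon-γ input to Ciita 7 of 9 tested genes were called higher and none lower, against 24.0% and 23.4% of all genes. Both receptor chains rose, Ifngr1 by a log2 fold change of 1.21 and Ifngr2 by 1.55, as did the kinase Jak2 (1.10), the transcription factors Irf8 (1.06) and Usf1 (0.35), and Socs1, a feedback inhibitor of the pathway (1.16). The kinase Jak1 (0.26) and the transcription factor Irf1 (0.08) were not called. The ligand gene Ifng had too few reads for the test, at 17, 8 and 22 counts in TNF+ and 6, 7 and 9 in TNF- lungs.

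All 8 endosomal processing genes rose, against 24.0% of all genes, with a median log2 fold change of 1.56. Ctss, the protease that trims the invariant chain in antigen-presenting cells, went from 3215, 4464 and 3989 normalized counts in TNF- lungs to 37210, 43970 and 27225 in TNF+ lungs, with no overlap (log2 fold change 3.22, SE 0.22, edgeR adjusted p = 2.15e-05). The cathepsins Ctsd (2.12), Ctsb (2.10) and Ctsl (0.71), the protease Lgmn (1.69), the thiol reductase Ifi30 (1.43), the protease Sppl2a (0.67), which clears the last stub of the invariant chain, and the protease inhibitor Cst3 (0.52) were all higher. Several of these proteins also serve general lysosomal breakdown.

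Of the genes for turnover at the cell surface, March1, a ubiquitin ligase that takes class II molecules down, rose with a log2 fold change of 2.69 (SE 0.20, edgeR adjusted p = 3.00e-05). Its normalized counts were 1324, 1179 and 897 in TNF+ and 161, 150.5 and 214 in TNF- lungs. Cd83, which opposes March1, was also higher (1.06), and the related ligase March8 was lower (-0.34). All 8 partner genes rose, again against 24.0% of all genes, with a median of 2.02. They include the costimulators Cd80 (2.19), Cd86 (1.60), Cd40 (0.54) and Icosl (0.65), the inhibitory ligands Cd274 (1.84) and Pdcd1lg2 (2.65), and the class II receptors Lag3 (2.24) and Cd4. Cd4 stood at 11703, 12314 and 8082 normalized counts in TNF+ lungs and at 279, 287 and 557 in TNF- lungs, a log2 fold change of 4.84 (SE 0.33, edgeR adjusted p = 2.15e-05). Beside it, the T cell markers had a median log2 fold change of 0.86 and the highest, Trac, at 1.16, and the difference between Cd4 and these markers was not tested.

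In the class I list, whose products present peptides from the cytosol, 6 of 10 genes rose, against 24.0% of all genes. H2-K1 (log2 fold change 1.14), H2-D1 (0.88) and the light chain B2m (1.12) were higher, as were the immunoproteasome genes Psmb8 (0.93), Psmb9 (0.64) and Psmb10 (0.78). The peptide transporter genes Tap1 (0.25) and Tap2 (0.31), their partner Tapbp (0.30) and Nlrc5, the class I counterpart of Ciita (0.11), were not called. The median of the 10 class I genes was 0.71. Nlrc5 overlapped between the groups as Ciita did, at 1489, 1773 and 1764 normalized counts in TNF+ and 1573, 1608 and 1477 in TNF- lungs (edgeR adjusted p = 0.388). Over all 7 pathway lists, 34 of 46 tested genes were called, 33 higher and 1 lower, to be read beside the 24.0% and 23.4% of all genes. Without the class I list 28 of 36 were called.

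**Figure D5:**
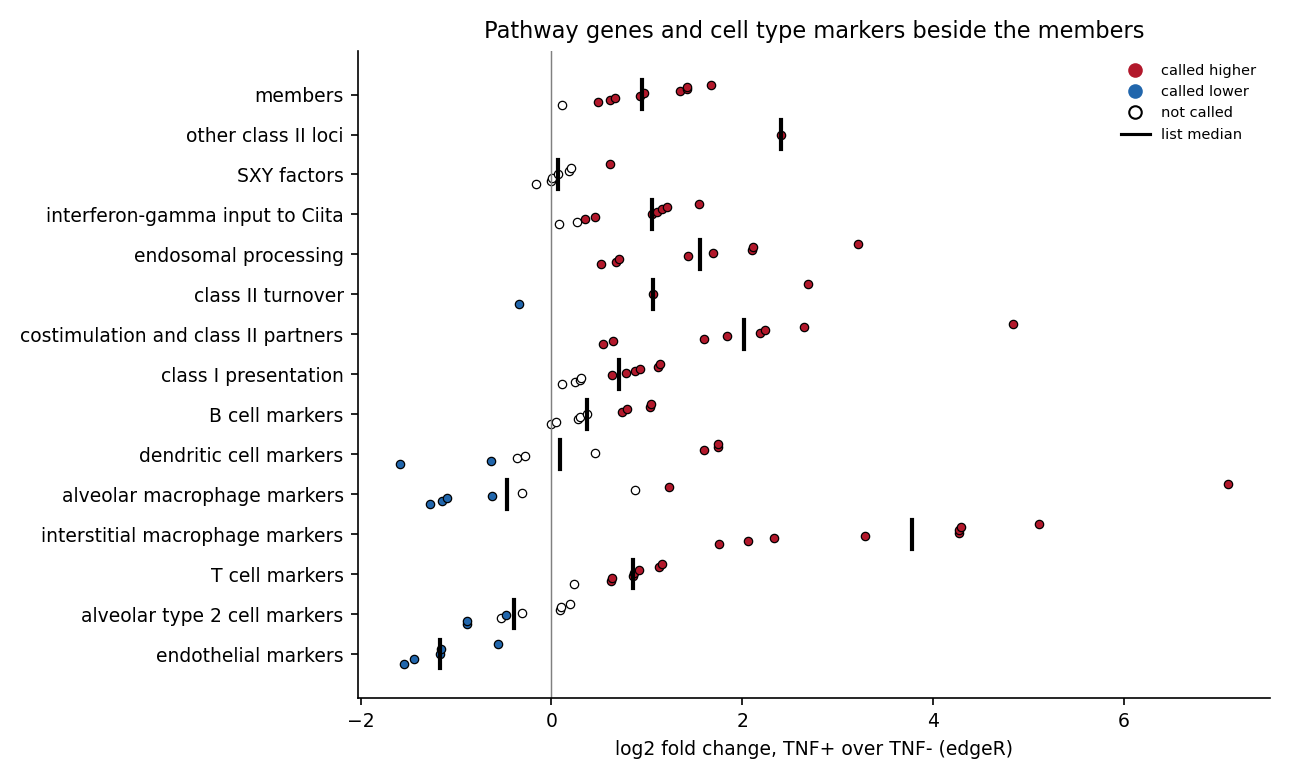
Log2 fold change, TNF+ over TNF-, of each tested gene in the member list, the 7 pathway lists and 7 cell type marker lists, with a black line at each list's median. The median is 0.95 for the members, 0.07 for the SXY factors, 1.56 for endosomal processing and 3.78 for the interstitial macrophage markers.

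The genes whose course over the 6 lungs was closest to the mean course of H2-Aa, H2-Ab1, H2-Eb1 and Cd74 were sought among 11288 genes whose mean log2 CPM was 3 or more. By the root mean square difference of centred log2 CPM, the 5 closest were Cd38, a surface ectoenzyme of leukocytes, at 0.04, the kinase Syk at 0.05, the thiol reductase Ifi30 at 0.05, the thioredoxin reductase Txnrd1 at 0.06 and the methionine sulfoxide reductase Msrb1 at 0.06. Cd38 had 1634, 1682 and 1514 normalized counts in TNF+ and 578, 669 and 714 in TNF- lungs. With 6 lungs in 2 groups, this likeness rests mainly on the size of the group difference.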

How the data were processed

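The authors sequenced lung RNA of 3 TNF+ and 3 TNF- mice from stranded poly(A) libraries as single-end reads of 100 bases. Per the labels and the submitters' processing notes, reads were trimmed with Trimmomatic, aligned to GRCm38.p5 with STAR (version 2.5.2b) and assigned with featureCounts. The authors deposited raw counts per gene symbol, without normalization. The strand setting and annotation of the counting are not given in the sources used here, so reads of overlapping antisense genes (Brd2 for H2-DMa, Dexi for Ciita) may be included. Each column was matched to its mouse by genotype and number.

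All counts entered 1 edgeR fit (4.0.16, under R 4.3.3) of genotype, after filterByExpr and TMM. The quasi-likelihood p-values were adjusted by Benjamini-Hochberg, with a cutoff of 0.05. Normalized counts are counts over the TMM-scaled total times its mean. The standard error is the log2 fold change over the square root of F. Ratios used log2 values with a prior count of 2 and exact permutation tests (scipy, version 1.17.1). A floor of 3 counts was 0.0922 to 0.118 CPM by unadjusted totals, while other CPM used TMM-scaled totals. All members were named, then any gene of the fixed lists, and the 5 genes closest to the mean course of the classical chains and Cd74. Tnf, Gm42418 and the overlapping genes Brd2 and Dexi were named after their values were seen. The single value of 1 listed gene is not reported here. The members and lists were chosen with earlier results of these data known. Alternatives were limma-voom (limma 3.58.1), DESeq2 (1.42.0), other size factors, filters and prior counts, robust dispersion, a replicate block and lungs left out. The scripts were tested on simulated counts.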

Additional observations from a re-analysis of the deposited data

How the results depend on the processing

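Where a call also needed an absolute log2 fold change of 1, 4320 genes, 4 of the 10 members (H2-Aa, H2-Ab1, H2-Eb1 and H2-Oa) and 21 of the other pathway genes were called, in place of 9096, 9 and 34. With both lungs numbered 1 left out, which uses fewer samples, the counts were 6064, 7 and 26. All other fits gave 7347 to 9164 genes, 8 or 9 members and 30 to 36 pathway genes. H2-Ob was not called with DESeq2's size factors in edgeR (adjusted p = 0.0623) or with total counts only (adjusted p = 0.0813), and its log2 fold change lay between 0.28 and 0.62 with 1 lung left out. Ciita, never called, lay between -0.024 and 0.27 with 1 lung left out and turned negative without TNF- replicate 3. The cause of these changes was not tested. H2-Aa, H2-Ab1, H2-Eb1, H2-DMa, H2-DMb2, H2-Oa and Cd74 kept their direction and call under the 15 alternatives other than that minimum fold change, under which H2-DMa, H2-DMb2 and Cd74 were not called. With a replicate block 7686 genes, 9 members and 33 pathway genes were called, and no member's call changed. With each genotype's mean subtracted, log2 CPM of same-numbered lungs correlated at -0.149, -0.00429 and -0.242 across genes. Pairs with different numbers correlated at -0.0604 to 0.211. These values gave no sign of pairing by number, but 3 lungs per genotype cannot settle it. The median log2 fold change of all genes stayed between -0.000761 and 0.0568 in every alternative fit. It was 0.00972 with DESeq2's size factors in edgeR and 0.0127 with total counts only. With 3 lungs per genotype the exact tests cannot pass 0.05, and among the genes described depth limits H2-Ea-ps and Ifng, which had too few reads to be tested.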
